A study of Rattus norvegicus with 31 samples.

Results

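Imazalil (IMZ) is an imidazole fungicide of the azole class, and its effect when given alone was described here in rat liver by comparing the 4 livers labelled Imazalil with the 8 livers labelled Control, 12 of the 31 livers of the series. Of the 26312 genes in the count table, the 19904 whose counts summed to 2 or more across all 31 libraries were tested, whatever their values in these 12 livers. All livers came from young adult female Wistar rats (Crl:WI). The IMZ group received 93 mg/kg bw/day by daily gavage for 28 days, suspended in aqueous carboxymethyl-cellulose, and the control group was gavaged with the carboxymethyl-cellulose vehicle alone. The other livers came from rats given thiacloprid (THI, 108 mg/kg bw/day, 4 rats), clothianidin (CTD, 288 mg/kg bw/day, 3 rats) or pairs of the 3 compounds. RNA was taken from pieces of whole liver at 1 dose and 1 time, and each library is 1 rat.

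The liver senses foreign compounds with nuclear receptors. CAR (Nr1i3) and PXR (Nr1i2) raise transcription of cytochromes P450 of the Cyp2b and Cyp3a families, of the enzymes that conjugate their products, and of the transporters that export the conjugates, while the aryl hydrocarbon receptor (AHR) acts on Cyp1a1 and NRF2 on genes of glutathione supply. Activators of CAR are also known in rodents for liver growth and hepatocyte division. Azole fungicides act on fungi by blocking the sterol demethylase Cyp51, and they bind the haem iron of many other P450 enzymes.

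Levels are given as counts per M counts of the library (CPM) after TMM scaling, and a difference as the log2 fold change of IMZ minus control (n = 4 against 8). The ± value is a standard error worked back from the fold change and its test statistic. It rests on a spread estimated over all 31 libraries. A gene was called where its p-value in the quasi-likelihood test of edgeR was under 0.05 after Benjamini-Hochberg adjustment over all 19904 genes, and "rose" and "fell" are used for called genes only. The IMZ libraries held 40.2 to 46.3 M counts and the control libraries 32.7 to 101.2 M counts, and no pair of rats of 1 group agreed within sampling noise. The liver gene albumin and the female pattern of P450 genes were present in all 12 rats. Alb was at 118600 to 173300 CPM in control and 107200, 124300, 140000 and 126400 CPM in IMZ. The male P450 Cyp2c11 was at 0.193, 1.18, 0 and 0 CPM in IMZ replicates 1 to 4 and at most 0.324 CPM in control, and the female P450 Cyp2c12 was at 4651, 4602, 4954 and 4941 CPM and at 4548 to 5823 CPM with a median of 5188 CPM in control.

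A total of 50 genes were called, which is 0.251% of those tested, with 38 higher in IMZ (0.191%) and 12 lower (0.0603%). The named ones that rose included the P450 genes Cyp2b1, Cyp2b2, Cyp3a23/3a1 under both of its identifiers, Cyp3a18, Cyp2a3 and Cyp1a1, the aldehyde dehydrogenase Aldh1a1, the glutathione transferases Gsta3, Gstm1 and Gstm3, the glutathione enzymes Gclm and Gsr, the glucuronosyltransferases Ugt1a2, Ugt2a3 and Ugt2b17, the carboxylesterases Ces1c, Ces1h, Ces2i and Ces2j, and the transporter Abcc3. The other named genes that rose were Pir, Mme, Grin2c, App, Csmd1, Entpd5, Cxcl9, Rgs5, Vnn1, Zwint, Serpinb7, Mrpl49, Tmem97 and Comtd1. The named genes that fell were Megf11, Adam15, Lepr, Eln, Slc27a1, Sema4a, Glb1l2, Slc16a10, Itih3, Arhgef3 and Mccc1. A further 4 called genes carried no symbol. Of these, ENSRNOG00000047172 was at 5.21, 13.1, 13.4 and 5.06 CPM in IMZ replicates 1 to 4 and at most 0.863 CPM in control (log2 fold change 5.54 ± 1.00, adjusted p = 0.00426), and ENSRNOG00000011330 was at 341, 466, 587 and 436 CPM and at most 313 CPM (1.00 ± 0.17, adjusted p = 0.00288). The rise was more than 2-fold for 24 genes and the fall for 5.

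In 29 of the 38 genes that rose, all 4 IMZ rats lay above all 8 control rats, and in 9 of the 12 that fell all 4 lay below. Over all genes tested, 0.713% had all IMZ rats above all control rats and 0.553% all below, while 4.17% were higher and 3.91% lower at an unadjusted p under 0.05. The median log2 fold change over all genes was -0.02. At the edge of the threshold stood Ces2j, Tmem97 and Comtd1, each with an adjusted p of 0.0459, and just outside it Kif26b (0.0517), Slc4a4 (0.0523), Htatip2 and Dhrs7 (both 0.0586). The plot of log2 fold change against level shows the called genes against the rest.

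**Figure D1:**
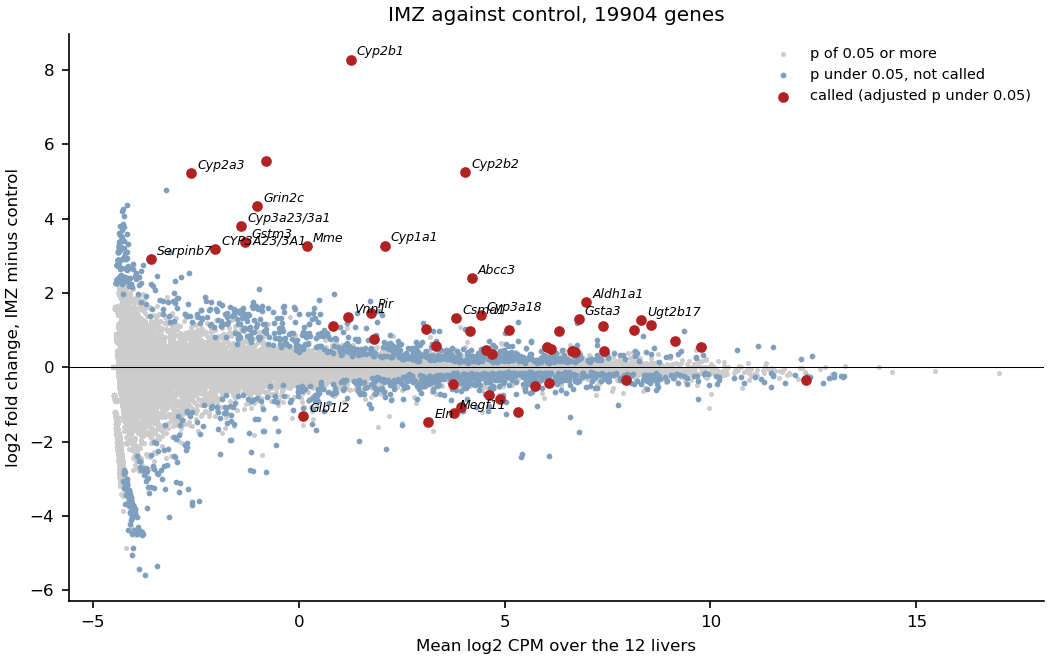
Log2 fold change of IMZ minus control (vertical axis) against the mean log2 CPM over the 12 livers (horizontal axis) for 19904 genes. The 50 called genes are red with named ones labelled where the change exceeds 1.2, genes with an unadjusted p under 0.05 that were not called are blue, and Cyp2b1 has the highest change of the labelled genes at 8.28.

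The proximal promoters of Cyp2b1 and Cyp2b2, the pair of neighbouring P450 genes that define the phenobarbital type of induction, are shown because these genes head the results and to set the upstream sequences of the pair side by side. Each window holds the 250 bases before the gene start annotated by RefSeq on GRCr8, written 5′ to 3′ on the plus strand, with Cyp2b1 at chr1:90645869-90646118 and Cyp2b2 at chr1:90722031-90722280. When the windows were shifted by 17 bases, 225 of the 233 bases compared were identical (96.6%). Capitals mark the 8 bases that differ.
Cyp2b1: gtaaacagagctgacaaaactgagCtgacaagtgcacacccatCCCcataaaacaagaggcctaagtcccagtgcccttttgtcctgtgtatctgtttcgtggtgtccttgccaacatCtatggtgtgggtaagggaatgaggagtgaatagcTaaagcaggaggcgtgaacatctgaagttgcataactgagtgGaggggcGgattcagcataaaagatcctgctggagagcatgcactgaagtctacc
Cyp2b2: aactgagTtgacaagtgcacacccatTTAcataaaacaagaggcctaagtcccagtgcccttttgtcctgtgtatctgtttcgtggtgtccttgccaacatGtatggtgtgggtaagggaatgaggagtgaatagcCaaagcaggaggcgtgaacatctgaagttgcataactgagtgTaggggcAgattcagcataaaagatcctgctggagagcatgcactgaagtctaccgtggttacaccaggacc
Per the study's methods uniquely mapped reads were used, so the levels of close copies rest on the reads that map to 1 place only.

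Cyp2b1 and Cyp2b2 oxidise drugs, steroids and pesticides. Cyp2b1 stood at 37.7, 472, 110.2 and 13.5 CPM in IMZ replicates 1 to 4 and at 0.0302 to 0.998 CPM with a median of 0.379 CPM in control. All 4 IMZ rats lay far above all controls, but they differed among themselves by a factor of 34.9, with replicate 2 highest and replicate 4 lowest. The log2 fold change of Cyp2b1 was 8.28 ± 0.86 (adjusted p = 3.68e-07), and the 8 control libraries held only 1 to 66 reads of it, so the base of this fold is small. Cyp2b2 was at 120.5, 468, 268 and 79.6 CPM in IMZ and 1.51 to 12.1 CPM with a median of 4.7 CPM in control, a log2 fold change of 5.26 ± 0.44 (adjusted p = 9.96e-09), with the rats in the same order as for Cyp2b1.

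The Cyp3a enzymes are the main drug-oxidising P450s under PXR control. Cyp3a23/3a1 was listed under 2 gene identifiers, and with close Cyp3a copies in the genome the values of each, from uniquely mapped reads, are uncertain. The first identifier gave 1.52, 2.16, 3.09 and 0.973 CPM in IMZ and 0.0609 to 0.247 CPM with a median of 0.128 CPM in control, with a log2 fold change of 3.80 ± 0.34 (adjusted p = 2.7e-08). The second gave 0.752, 0.957, 1.64 and 0.411 CPM in IMZ and at most 0.17 CPM in control, with a log2 fold change of 3.18 ± 0.38 (adjusted p = 5.21e-06). Under both identifiers the IMZ and control rats did not overlap and IMZ replicate 3 was highest. Cyp3a18 was at 43.7, 41.4, 62 and 26.6 CPM against 7.41 to 22.4 CPM with a median of 18.3 CPM in control, and rose by 1.40 ± 0.25 on the log2 scale (adjusted p = 0.00333) with no overlap. Without IMZ replicate 3 its log2 fold change was 1.18 and the adjusted p was 0.0627.

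Cyp2a3, a P450 better known from the nose and lung than from the liver, was near zero in control, at no more than 0.0936 CPM. It reached 0.444, 4.02, 2.04 and 0.0216 CPM in IMZ replicates 1 to 4, so that replicate 4 lay inside the control range while the other 3 lay above it. The log2 fold change was 5.22 ± 0.95 (adjusted p = 0.00434), but without IMZ replicate 2 it was 4.25 with an adjusted p of 0.0715. Cyp1a1, the classical target of AHR, stood at 10.4, 77.6, 34.8 and 7.72 CPM in IMZ and at 0.268 to 7.81 CPM with a median of 2.15 CPM in control. Replicate 4 fell just inside the control range and replicate 2 was again highest. The log2 fold change of 3.28 ± 0.63 (adjusted p = 0.00909) dropped to 2.39 without replicate 2, with an adjusted p of 0.137. Of the 7 AHR targets tested, Cyp1a1 alone was called, against 0.191% called higher among all genes, and 3 had a control mean under 0.1 CPM. Cyp1a2, a constitutive P450 of the liver, was at 1758, 2250, 2353 and 1763 CPM against 1040 to 2069 CPM (log2 fold change 0.47 ± 0.18, adjusted p = 0.431).

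**Figure D2:**
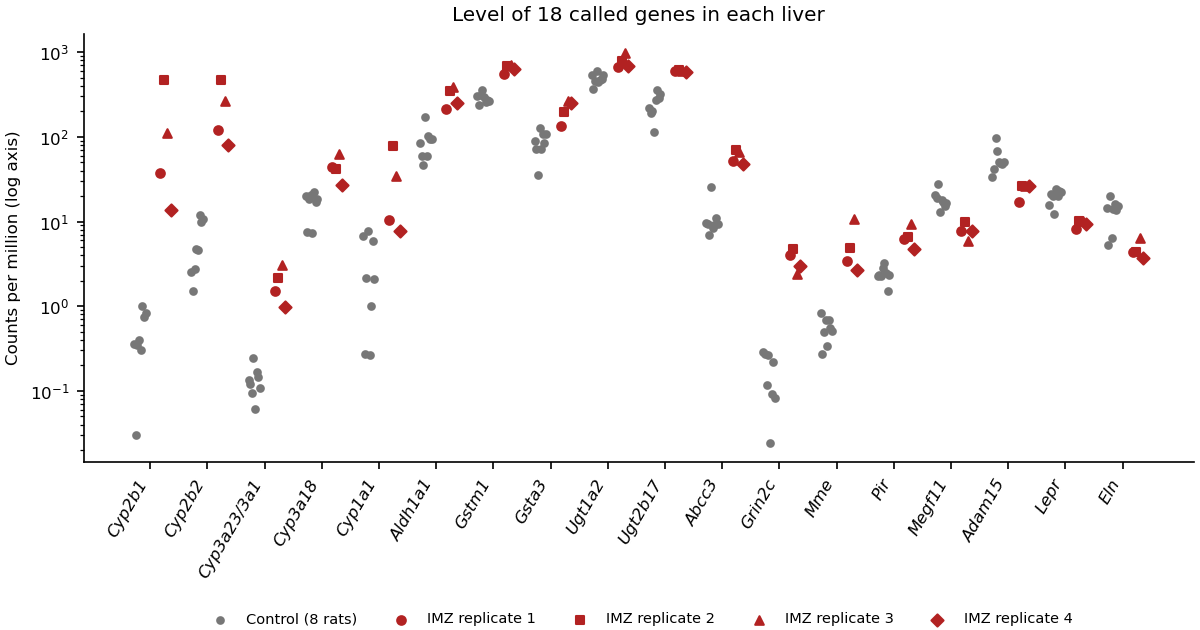
CPM on a log axis for 18 called genes, 1 column a gene, with the 8 control livers in grey and the 4 IMZ livers in red with a symbol for each replicate. The IMZ points of Cyp2b1 spread from 13.5 to 472 CPM, all above the highest control at 0.998 CPM.

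Among other phase I enzymes, Aldh1a1, which oxidises retinal and lipid aldehydes, was at 212, 349, 387 and 251 CPM in IMZ and at 46.8 to 172 CPM with a median of 89.5 CPM in control. All IMZ rats were above all control rats, and the log2 fold change was 1.75 ± 0.24 (adjusted p = 6.32e-05). Por, the reductase that feeds electrons to P450 enzymes, was at 201, 258, 203 and 149 CPM against 113 to 165 CPM and was not called (log2 fold change 0.59 ± 0.20, adjusted p = 0.334). Ephx1, microsomal epoxide hydrolase, was at 848, 1197, 1292 and 971 CPM against 212 to 761 CPM, above all controls but also not called (log2 fold change 0.98 ± 0.24, adjusted p = 0.0761).

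The conjugating enzymes attach glutathione or glucuronic acid. Gstm1, a glutathione transferase of the mu class, was at 550.5, 683, 699 and 629.6 CPM in IMZ and 238 to 362 CPM with a median of 285 CPM in control, a rise of 1.15 ± 0.14 on the log2 scale (adjusted p = 7.22e-06). Gsta3, of the alpha class, was at 136, 198, 267 and 252 CPM and 35 to 126 CPM with a median of 86.9 CPM, with a log2 fold change of 1.30 ± 0.20 (adjusted p = 0.000701). For both transferases the groups did not overlap. Gstm3 rose from at most 0.326 CPM in control to 0.984, 2.28, 2.85 and 1.27 CPM in IMZ (log2 fold change 3.36 ± 0.60, adjusted p = 0.00426).

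The transferases, glucuronosyltransferases and carboxylesterases all have close copies, so that values of single members, which rest on uniquely mapped reads, are uncertain. Of the glucuronosyltransferases, Ugt2b17 was at 592, 622, 594 and 586 CPM in IMZ, nearly the same in each rat, against 115 to 358 CPM with a median of 248 CPM in control (log2 fold change 1.28 ± 0.25, adjusted p = 0.00839). Ugt2a3 rose by 1.11 ± 0.19 on the log2 scale, to 334, 246, 339 and 237 CPM from at most 218 CPM, and Ugt1a2 by 0.70 ± 0.11, to 678, 796, 973 and 697 CPM from at most 594 CPM. No IMZ rat overlapped a control rat for any of the 3 genes.

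Carboxylesterases hydrolyse esters and amides, and 4 of them rose with all IMZ rats above all control rats. Ces1c was at 989, 1011, 1282 and 1231 CPM against 624 to 938 CPM in control (log2 fold change 0.55 ± 0.10, adjusted p = 0.00839). Ces1h reached 97.3, 131, 163 and 122 CPM against at most 92 CPM (log2 fold change 0.98 ± 0.18), and Ces2i 42.1, 61.6, 69.6 and 49.2 CPM against at most 39.5 CPM (1.00 ± 0.18). The calls leaned on single rats. Without IMZ replicate 3 the adjusted p was 0.0929 for Ces1c, 0.0668 for Ces1h and 0.064 for Ces2i, and without replicate 4 it was 0.0763 for Ces1c. Ces2j, with a log2 fold change of 0.97 ± 0.22, stayed called in 1 of the 12 fits that each left out 1 rat. Of 23 genes of carbonyl and epoxide detoxification tested, 3 rose (Aldh1a1, Ces1c and Ces2i) and none fell, against 0.191% and 0.0603% of all genes, with a median of 0.11.

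Abcc3 (Mrp3) is the pump that carries glucuronides and bile acids from the hepatocyte back to the blood. It stood at 52.2, 70.7, 67.1 and 47.5 CPM in IMZ and at 6.97 to 25.2 CPM with a median of 9.38 CPM in control, where replicate 4 was well above the other controls, the next of which was at 11 CPM. All 4 IMZ rats exceeded that control, and the log2 fold change was 2.41 ± 0.23 (adjusted p = 5.65e-08). The canalicular pump Abcc2 was at 1028, 1019, 1019 and 1106 CPM against 637 to 1040 CPM and was not called (log2 fold change 0.20 ± 0.11, adjusted p = 0.668). ABCC4 was above all controls at 15.8, 12.1, 11.1 and 11.8 CPM against at most 9.7 CPM, without being called (log2 fold change 0.62 ± 0.19, adjusted p = 0.219).

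Over the 49 CAR and PXR targets tested, 10 rose and none fell, against 0.191% called higher among all genes, and the median log2 fold change was 0.35 against -0.02 over all genes. By role, 5 of 17 phase I enzymes, 4 of 21 conjugation enzymes and 1 of 11 transporters rose, with medians of 0.59, 0.22 and 0.38. The list was drawn up with earlier results of these data known. The receptors themselves were not called. Nr1i2 (PXR) was at 87.7, 108, 107 and 88.9 CPM in IMZ and 92.3 to 123 CPM in control (log2 fold change -0.07 ± 0.09, adjusted p = 0.853), and Nr1i3 (CAR) at 9.95, 10.9, 9.37 and 12 CPM and 2.85 to 16.1 CPM (0.21 ± 0.27, adjusted p = 0.87). The IMZ rats lay within the control range for Nr1i3, and 2 of them just below it for Nr1i2. None of the 20 xenosensor receptors and partners was called by edgeR or by DESeq2, and 2 had an unadjusted p under 0.05. Nr0b2 (SHP), a repressor that the bile acid receptor induces, was at 41.3, 33.1, 19.5 and 16.9 CPM against 8.27 to 19.9 CPM, with 2 IMZ rats above and 2 inside the control range (log2 fold change 1.03 ± 0.30, adjusted p = 0.192).

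The promoters of Pir and Gclm are shown because both genes rose and because both windows hold the core of the antioxidant response element to which NRF2 binds, TGACNNNGC, searched on both strands. Each is the 250 bases before the RefSeq gene start on GRCr8, 5′ to 3′ along the gene, with Pir on the minus strand at chrX:33851050-33851299 and Gclm on the plus strand at chr2:213031885-213032134. Capitals mark the matches, 2 in Pir and 1 in Gclm.
Pir: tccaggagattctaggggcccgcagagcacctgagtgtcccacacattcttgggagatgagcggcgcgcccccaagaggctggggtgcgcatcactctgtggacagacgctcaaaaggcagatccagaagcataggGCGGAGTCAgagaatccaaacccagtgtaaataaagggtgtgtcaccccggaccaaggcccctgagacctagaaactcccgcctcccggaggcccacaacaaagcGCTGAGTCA
Gclm: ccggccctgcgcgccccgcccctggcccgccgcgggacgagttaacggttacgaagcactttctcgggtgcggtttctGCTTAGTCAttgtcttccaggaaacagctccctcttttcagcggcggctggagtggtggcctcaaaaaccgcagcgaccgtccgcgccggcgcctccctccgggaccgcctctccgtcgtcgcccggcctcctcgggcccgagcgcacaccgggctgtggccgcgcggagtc
The motif was found in 10.2% of the windows of all 27457 RefSeq genes, in 4 of 16 NRF2 targets with a window and in 6 of 26 genes that rose (23.1%). A match describes the letters only and is not a measured binding site.

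Gclm, the regulatory subunit of the enzyme that starts glutathione synthesis, was at 94.9, 75.2, 102 and 80.3 CPM in IMZ and 57.3 to 70.1 CPM with a median of 62.1 CPM in control, with no overlap (log2 fold change 0.51 ± 0.10, adjusted p = 0.0125). Without IMZ replicate 1 the adjusted p was 0.101 and without replicate 3 it was 0.175. Gsr, which recycles oxidised glutathione, was at 111, 113, 151 and 133 CPM against 86.5 to 105 CPM (log2 fold change 0.40 ± 0.09, adjusted p = 0.0343), and stayed called in 6 of 12 fits that left out 1 rat, with its highest adjusted p of 0.296 without IMZ replicate 3. Pir, the nuclear iron protein pirin, was at 6.19, 6.6, 9.4 and 4.78 CPM against 1.5 to 3.28 CPM with a median of 2.36 CPM (log2 fold change 1.48 ± 0.17, adjusted p = 3.23e-06) and was called without each rat in turn. Gclm and Gsr were the only members called among 21 NRF2 targets tested, while 12 were higher and none lower at an unadjusted p under 0.05, against 0.191% called higher and 4.17% higher at that p among all genes, with a median of 0.34. In 6 of the 21 all IMZ rats lay above all controls, against 0.713% of all genes. Gclc, Akr7a3, Me1 and ABCC4 were among these without a call. Nqo1, the quinone reductase often used as an NRF2 marker, was at 77.5, 52.5, 92.1 and 42.5 CPM against 41.1 to 78.2 CPM. Replicate 3 alone lay above the control range (log2 fold change 0.14 ± 0.26, adjusted p = 0.927). Txnrd1, thioredoxin reductase, was at 158, 118, 136 and 124 CPM against 90.7 to 145 CPM (log2 fold change 0.34 ± 0.12, adjusted p = 0.384).

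Among the genes that rose outside these families, Grin2c, a subunit of the NMDA glutamate receptor, was at 4.01, 4.71, 2.4 and 2.96 CPM in IMZ and at 0.0244 to 0.289 CPM with a median of 0.169 CPM in control. Mme, the membrane peptidase neprilysin, was at 3.43, 4.88, 10.8 and 2.7 CPM against 0.271 to 0.83 CPM with a median of 0.533 CPM. Neither gene overlapped between the groups, with log2 fold changes of 4.34 ± 0.43 (adjusted p = 1.2e-07) for Grin2c and 3.26 ± 0.38 (adjusted p = 3.23e-06) for Mme. App, the amyloid precursor protein, rose by only 0.45 ± 0.07 on the log2 scale but with little spread, from 79.2 to 98.2 CPM in control to 132, 124, 121 and 110.3 CPM in IMZ (adjusted p = 0.000701). Csmd1, a membrane protein that regulates complement, was at 30.1, 32.5, 17.3 and 32.7 CPM against 6.71 to 23.7 CPM with a median of 8.98 CPM, with replicate 3 inside the control range (log2 fold change 1.33 ± 0.25, adjusted p = 0.00797, 0.0581 without IMZ replicate 4).

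Further genes rose by less or with calls that depended on more rats. Entpd5, a nucleotidase of the endoplasmic reticulum, rose by 0.45 ± 0.09 on the log2 scale, with an adjusted p of 0.133 without IMZ replicate 3. Cxcl9, a chemokine that interferon gamma induces, was at 14.7, 9.39, 19.3 and 12.4 CPM against 4.95 to 9.64 CPM (log2 fold change 1.03 ± 0.21), with an adjusted p of 0.101 without IMZ replicate 1 and 0.234 without replicate 3. Vnn1, the pantetheinase vanin, was at 7.33, 2.08, 2.9 and 5.53 CPM against 0.912 to 2.75 CPM (log2 fold change 1.35 ± 0.30). Serpinb7, a serine protease inhibitor of the serpin family, was under 0.3 CPM in every liver at 0.212, 0.0981, 0.147 and 0.0648 CPM in IMZ and at most 0.0302 CPM in control (log2 fold change 2.92 ± 0.65). The remaining rises were 0.76 ± 0.16 for Rgs5, a regulator of G protein signalling found in pericytes, 0.58 ± 0.13 for Comtd1, a methyltransferase-like protein, 0.54 ± 0.12 for Tmem97, 0.48 ± 0.11 for Zwint, a kinetochore protein, and 0.36 ± 0.08 for Mrpl49, of the mitochondrial ribosome. Of the 12 fits that each left out 1 rat, Vnn1 was called in 4, Serpinb7 in 3, Rgs5 in 5, Comtd1 in 2, Tmem97 in 4, Zwint in 4 and Mrpl49 in 3.

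Among the genes that fell, Megf11, a membrane protein with EGF repeats, was at 7.64, 9.86, 5.82 and 7.82 CPM in IMZ and 12.9 to 28 CPM with a median of 17.3 CPM in control (log2 fold change -1.24 ± 0.19, adjusted p = 0.000395). Adam15, a membrane metalloprotease, was at 17.2, 26.2, 26 and 26.6 CPM against 33.7 to 96.9 CPM with a median of 49.4 CPM, with IMZ replicate 1 apart from the other 3 (-1.19 ± 0.20, adjusted p = 0.00265). Lepr, the leptin receptor, was at 8.22, 10, 10.2 and 9.38 CPM against 12.2 to 24.5 CPM with a median of 20.6 CPM (-1.07 ± 0.20, adjusted p = 0.0049). These 3 did not overlap between the groups and were called without each rat in turn, the only genes lower in IMZ of which this held. Since RNA came from whole liver, fewer cells of a type and less RNA per cell cannot be told apart for any lower value.

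Eln, elastin, was at 4.34, 4.42, 6.36 and 3.74 CPM against 5.31 to 20.3 CPM with a median of 14.2 CPM with replicate 3 inside the control range (log2 fold change -1.48 ± 0.29, adjusted p = 0.00909), and its adjusted p was 0.0634 without IMZ replicate 1 and 0.0771 without replicate 4. Glb1l2, a beta-galactosidase-like protein, was at 0.637, 0.442, 0.466 and 0.778 CPM against 0.814 to 1.9 CPM (-1.32 ± 0.28). Arhgef3, a guanine nucleotide exchange factor, was at 19.4, 20.1, 19.7 and 22.3 CPM against 25.6 to 53.2 CPM (-0.86 ± 0.19), and Sema4a, a semaphorin, at 20.5, 18.1, 16.1 and 16.1 CPM against 22.1 to 35.9 CPM (-0.73 ± 0.16). In these last 3 genes all IMZ rats lay below all controls.

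The smaller falls were in genes of transport and of plasma and mitochondrial proteins. Slc27a1, a fatty acid transporter, was at 9.66, 11.1, 12.3 and 10.6 CPM against 13.1 to 16.9 CPM (log2 fold change -0.46 ± 0.09), and its adjusted p was 0.166, 0.0585 and 0.11 without IMZ replicates 1, 2 and 4 and 0.0518 without Control replicate 5. Slc16a10, which carries aromatic amino acids, was at 54.9, 60.2, 48 and 59.1 CPM against 61.5 to 83.4 CPM (-0.43 ± 0.09). Mccc1, a subunit of an enzyme of leucine breakdown, was at 37.4, 43, 43 and 46.4 CPM against 45.5 to 66.6 CPM (-0.49 ± 0.11), with 1 IMZ rat inside the control range. Itih3, a plasma protein that binds hyaluronan, was at 4239, 4395, 4669 and 4382 CPM against 5238 to 6102 CPM (-0.34 ± 0.07) without overlap. Of the 12 fits that each left out 1 rat, Glb1l2 was called in 5, Arhgef3 in 3, Sema4a in 5, Slc27a1 in 8, Slc16a10 in 3, Mccc1 in 2 and Itih3 in 6.

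When single rats were removed one by one, 28 to 59 genes were called, with the fewest without IMZ replicate 3 (28) and without IMZ replicate 4 (31). A total of 21 genes were called in all 12 of these fits, 18 that rose and 3 that fell. Among the 38 genes that rose, IMZ replicate 3 was the highest IMZ rat in 22, and replicates 4 and 1 were the lowest in 16 and 14. Of the controls, replicate 4 was highest in 16 and replicate 2 lowest in 14.

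**Figure D3:**
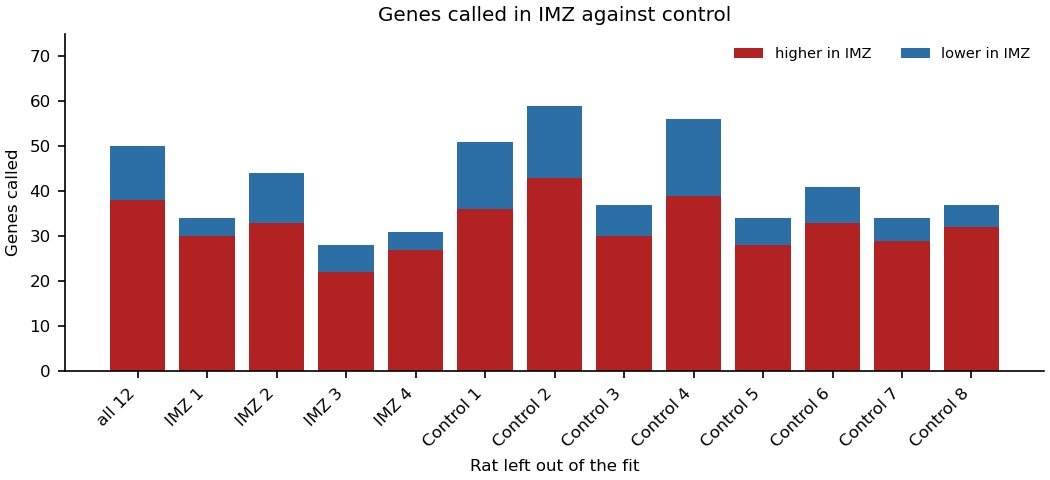
Number of genes called in IMZ against control (bars, red for higher and blue for lower in IMZ) with no rat left out (bar labelled all 12) and with each of the 12 rats left out in turn. The fits also hold the other livers of the series, 31 libraries in all before a rat is left out. The total is 50 with no rat left out and ranges from 28 without IMZ replicate 3 to 59.

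The promoters of Cdk1 and Mki67 are shown because all members tested of the cell division list had log2 fold changes above 0 without a call. Both windows are the 250 bases before the RefSeq gene start on GRCr8, 5′ to 3′ along the gene, with Cdk1 on the plus strand at chr20:19265043-19265292 and Mki67 on the minus strand at chr1:199952594-199952843. Capitals mark the CCAAT box and TTTGAA, the cell cycle gene homology region, searched on both strands. Cdk1 holds 3 and 2 of them and Mki67 4 and 2, 1 pair of which overlaps.
Cdk1: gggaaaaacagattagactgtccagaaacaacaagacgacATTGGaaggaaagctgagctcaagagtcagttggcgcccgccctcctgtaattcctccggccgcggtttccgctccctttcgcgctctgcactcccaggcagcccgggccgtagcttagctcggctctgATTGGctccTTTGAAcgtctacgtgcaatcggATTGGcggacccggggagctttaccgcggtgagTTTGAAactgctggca
Mki67: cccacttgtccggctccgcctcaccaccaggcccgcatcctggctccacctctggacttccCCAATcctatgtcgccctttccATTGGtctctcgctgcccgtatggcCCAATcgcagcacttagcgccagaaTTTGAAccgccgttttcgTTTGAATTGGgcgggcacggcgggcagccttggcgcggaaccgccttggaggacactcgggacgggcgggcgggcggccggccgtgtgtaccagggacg
The CCAAT box was found in the windows of 24 of 31 genes of the cell division list (77.4%) and in 34.3% of all genes, and TTTGAA in 13 of 31 (41.9%) and in 16% of all genes. These are counts of letters in a window and not measured binding.

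The cell division list held cyclins, mitotic kinases, kinetochore and spindle genes, all at low levels, with control medians of 0.134 to 2.87 CPM. All 38 genes had a log2 fold change above 0, from 0.20 to 1.66 with a median of 1.36, but edgeR called none of them. Zwint, the kinetochore gene that rose, was not on this list. At an unadjusted p under 0.05, 34 were higher and none lower, against 4.17% and 3.91% of all genes, the lowest adjusted p was 0.0848, and DESeq2 called 5, beside 150 genes in all (0.754%). In 9 of the 38 all IMZ rats lay above all controls, against 0.713% of all genes.

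Cdk1, the kinase that starts mitosis, was at 1.99, 1.1, 2.82 and 2.05 CPM in IMZ and 0.238 to 0.801 CPM with a median of 0.688 CPM in control (log2 fold change 1.64 ± 0.41, adjusted p = 0.0848). Kif23, a kinesin of cytokinesis, was at 0.849, 1.05, 1.03 and 0.908 CPM and 0.109 to 0.509 CPM (1.66 ± 0.42, adjusted p = 0.094), and Plk1, a mitotic kinase, at 0.83, 0.711, 1.72 and 1.04 CPM and 0.136 to 0.573 CPM (1.58 ± 0.43, adjusted p = 0.133). All IMZ rats were above all controls for these 3 genes. Mki67, the proliferation antigen Ki-67, was at 6.89, 4.59, 12.8 and 8.9 CPM against 1.74 to 5.4 CPM with a median of 2.87 CPM, with replicate 2 inside the control range (1.40 ± 0.40, adjusted p = 0.191). Ccnb1, cyclin B1, was at 1.1, 0.809, 2.28 and 2.72 CPM against 0.202 to 1.04 CPM (1.63 ± 0.48, adjusted p = 0.197), again with replicate 2 inside.

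The rats differed in the same way over the whole list. The median log2 difference of its genes from the control mean was 1.17, 0.66, 2.06 and 1.44 in IMZ replicates 1 to 4 and -0.49 to 0.73 in control. Their summed level was 64.3, 47.1, 110 and 78.9 CPM in IMZ against 20.6 to 47.8 CPM in control. IMZ replicate 3 was highest for 32 of the 38 genes and replicate 2 lowest for 29, and Control replicate 5 was the highest control for 18. Replicate 2, the lowest here, was the highest for Cyp2b1, Cyp2b2 and Cyp1a1. Over the 38 genes that rose, however, replicate 3 was the highest IMZ rat in 22 and replicate 2 in 7. Without replicate 3 the median log2 fold change was 1.09 and 23 genes had an unadjusted p under 0.05. With only the IMZ and control livers in the fit, 12 of the 38 were called, beside 93 genes in all (0.467%).

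**Figure D4:**
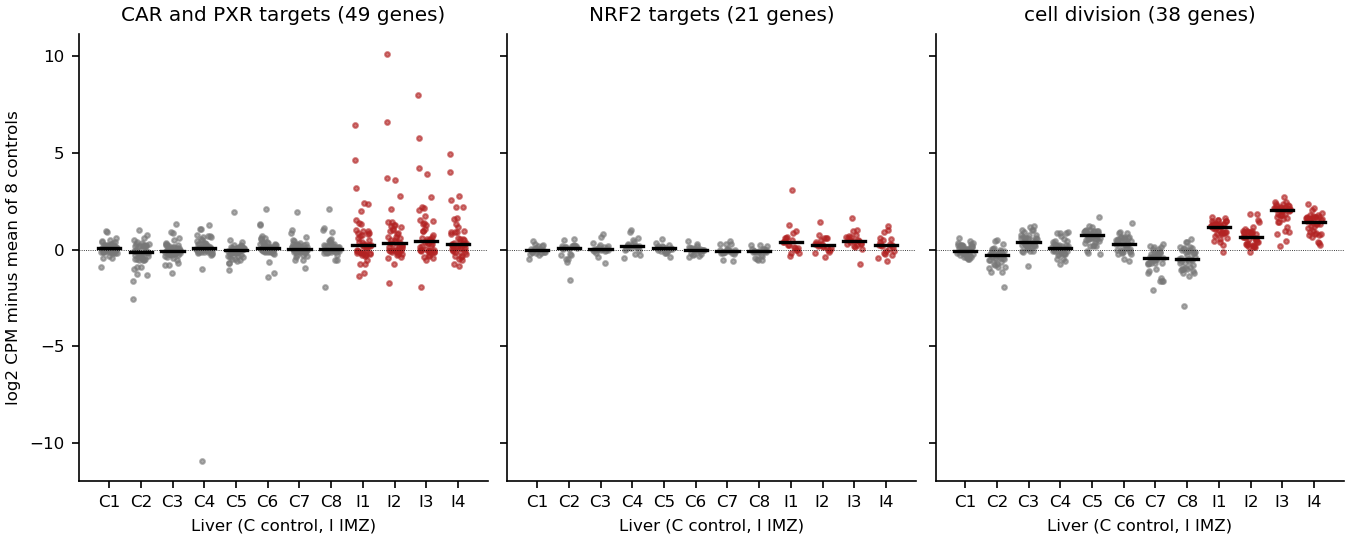
Log2 CPM minus the mean of the 8 controls (vertical axis) for the members of 3 lists in each liver (horizontal axis, C for control and I for IMZ). Points are genes and black bars the median of the list, which for cell division is 2.06 in IMZ replicate 3 and 0.66 in replicate 2.

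Lists next to cell division had smaller medians. For the counts in this and the following lists, 4.17% of all genes were higher and 3.91% lower at an unadjusted p under 0.05. DESeq2 called 0.754% of all genes. Of 34 genes of DNA replication, edgeR called none, 6 were higher at an unadjusted p under 0.05 and DESeq2 called 1, with a median of 0.21. Rrm2, a subunit of ribonucleotide reductase, was at 0.965, 0.49, 2.11 and 2.05 CPM against 0.109 to 0.575 CPM (log2 fold change 2.11 ± 0.53, adjusted p = 0.094). Of 20 G1 cyclins and inhibitors edgeR called none, with 6 higher and 1 lower at an unadjusted p under 0.05 and none called by DESeq2. Ccnd1, cyclin D1, was at 46.5, 22, 22.6 and 23.2 CPM against 16.5 to 24.9 CPM, so that replicate 1 alone lay above the controls (log2 fold change 0.50 ± 0.18, adjusted p = 0.365). E2f1 was the 1 member of that list with all IMZ rats above all controls. It was at 1.698, 1.766, 2.233 and 1.47 CPM against 0.605 to 1.206 CPM (0.92 ± 0.29, adjusted p = 0.251). None of 17 p53 targets was called by edgeR or DESeq2, or had an unadjusted p under 0.05 in edgeR (0 genes). Cdkn1a, the p53-dependent inhibitor p21, was at 8.26, 16, 14.3 and 15.1 CPM against 8.7 to 16.8 CPM (log2 fold change 0.06 ± 0.22, adjusted p = 0.98).

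Sterol synthesis contains the enzyme that the fungicide blocks in fungi, named CYP51A1 in the table. It was at 600.4, 614, 546 and 597 CPM in IMZ and 358 to 629 CPM with a median of 486 CPM in control, within the control range in all 4 rats (log2 fold change 0.26 ± 0.14, adjusted p = 0.652). Sc5d, an enzyme of a late step, was higher in all IMZ rats than in all controls, at 428, 481, 449 and 416 CPM against at most 392 CPM, but was not called (0.36 ± 0.10, adjusted p = 0.182). Of 20 genes of cholesterol synthesis edgeR and DESeq2 called none, 4 were higher at an unadjusted p under 0.05 and none lower, and the median was 0.25. Neither tool called any of 12 genes of sterol regulation or 16 of bile acid synthesis and transport, with none and 4 at an unadjusted p under 0.05. Cyp7a1, the rate-limiting enzyme of bile acid synthesis, ranged from 51.7 CPM in IMZ replicate 1 to 469 CPM in replicate 2, wider than the controls at 81.9 to 385 CPM (log2 fold change -0.17 ± 0.48, adjusted p = 0.966).

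In lipid and glucose metabolism, edgeR called none of 22 lipogenic genes and DESeq2 called 1. At an unadjusted p under 0.05 there were 3, with 2 higher and 1 lower. Of the 22 genes, 5 had log2 fold changes above 0 and 17 below, with a median of -0.25. Me1, malic enzyme, which supplies NADPH, was at 70.5, 78.2, 90.1 and 55 CPM against 20.6 to 54.7 CPM with a median of 25.8 CPM, above all controls (log2 fold change 1.23 ± 0.30, adjusted p = 0.0847). Vnn1 was the member called among 26 PPAR alpha targets, whose median was -0.03, against 0.191% called higher among all genes. None of 11 genes of gluconeogenesis and fasting was called by edgeR or DESeq2, with 3 lower at an unadjusted p under 0.05.

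Zonation is the division of tasks between hepatocytes near the central vein and near the portal tract. Several of its genes had lower values without a call in edgeR. DESeq2 called 2 genes in each zone, against 0.754% of all genes. Glul, glutamine synthetase of the innermost pericentral cells, was at 348, 298, 266 and 331 CPM against 357 to 621 CPM with a median of 469.6 CPM (log2 fold change -0.62 ± 0.15, adjusted p = 0.0753). Ass1, a periportal enzyme of the urea cycle, was at 1841, 2552, 2579 and 1872 CPM against 2785 to 3654 CPM with a median of 3256 CPM (-0.54 ± 0.13, adjusted p = 0.0754). For both, all 4 IMZ rats were below all controls. Cyp2e1, a pericentral P450, was likewise at 2695, 2935, 3194 and 3158 CPM against 3456 to 5841 CPM (-0.43 ± 0.13, adjusted p = 0.256). At an unadjusted p under 0.05, 3 of 15 pericentral genes were lower and 1 higher, and 4 of 15 periportal genes were lower, with medians of -0.12 and -0.16. Over all genes 3.91% were lower and 4.17% higher at that p.

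Of 19 acute phase genes Itih3 alone was called, against 0.0603% called lower among all genes. At an unadjusted p under 0.05, 6 were lower and none higher, against 3.91% and 4.17% of all genes. The summed level of the 19 was 63800, 67900, 68300 and 68400 CPM in IMZ against 70900 to 81700 CPM in control. The summed level of 12 hepatocyte markers was 194000, 224000, 236000 and 217000 CPM against 218000 to 282000 CPM, with 6 lower and 2 higher at an unadjusted p under 0.05. Its part in the lower acute phase and zonation genes was not tested. Of 21 genes of elastic fibres, collagen and smooth muscle, Eln alone was called, against 0.0603% called lower among all genes.

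No member was called by edgeR in the lists of the endoplasmic reticulum and amino acid stress response (20 tested), interferon response (28), immediate early genes (18), clock activators (7), clock repressors and output (16), growth hormone and IGF axis (19) or thyroid hormone handling (14). At an unadjusted p under 0.05 they held 3, 1, 4, 2, 1, 3 and 5 genes, of which 2, 0, 0, 1, 0, 0 and 3 were higher and the rest lower. DESeq2 called 2 genes of thyroid hormone handling, 1 of the stress response and 1 of clock repressors and output. Psat1, an enzyme of serine synthesis, was above all controls at 5.38, 2.53, 2.36 and 2.87 CPM against at most 2.16 CPM (log2 fold change 0.94 ± 0.26, adjusted p = 0.154). Bhlhe40, of the clock repressors and output, was below all controls at 33.45, 36.35, 41.2 and 41.76 CPM against 50.07 to 78.03 CPM (-0.65 ± 0.19, adjusted p = 0.18). Dbp and ARNTL, clock genes of opposite phase, were at 4.3, 6.01, 5.67 and 4.06 and 50.1, 51, 57.6 and 48.8 CPM, with log2 fold changes of -0.14 ± 0.17 (adjusted p = 0.852) and -0.09 ± 0.06 (adjusted p = 0.754), and Per2 gave 0.13 ± 0.38 (adjusted p = 0.968). Igf1, the growth factor that growth hormone induces, was at 491, 532, 506 and 483 CPM against 429 to 578 CPM (0.01 ± 0.10, adjusted p = 1). In a list of 10 genes chosen by the study on these same libraries, 5 rose and 2 fell, which is no independent evidence of their direction.

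**Figure D5:**
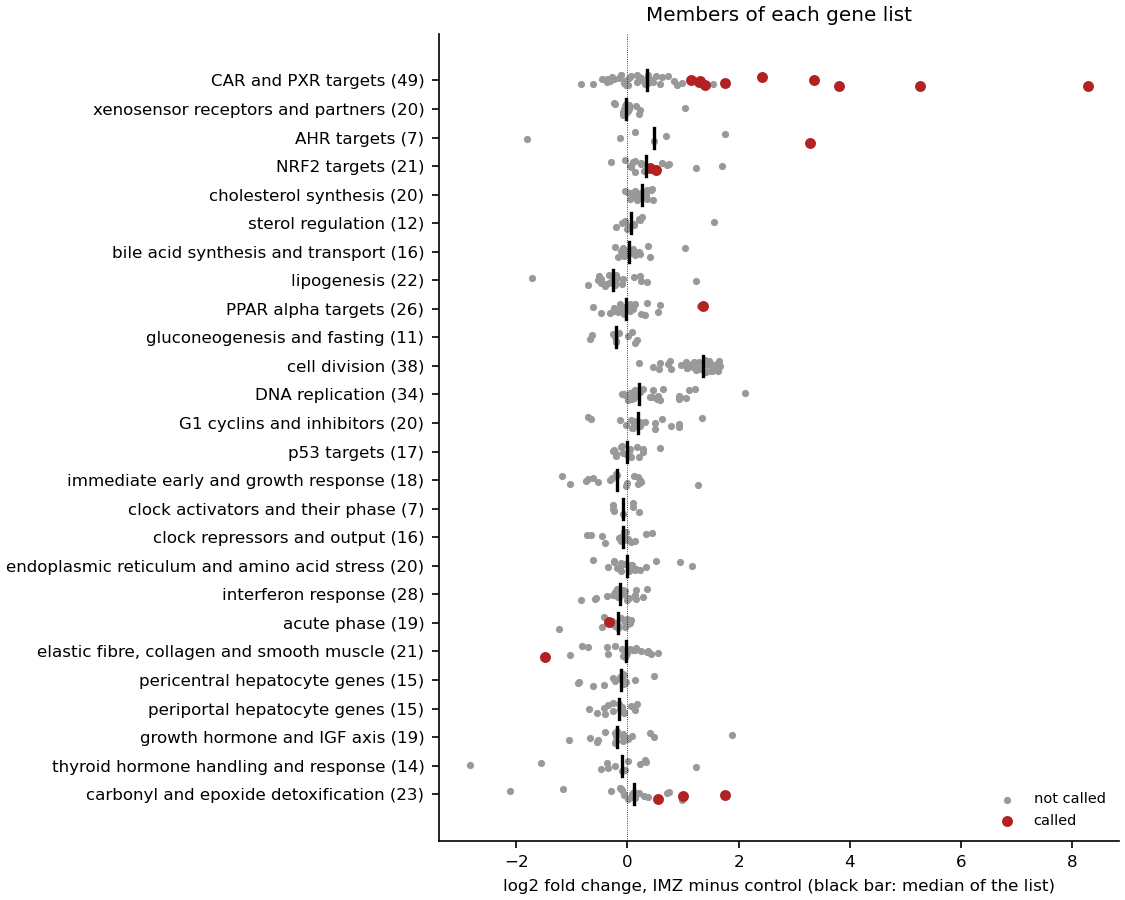
Log2 fold change of IMZ minus control (horizontal axis) for the members of 26 gene lists (vertical axis, number tested in brackets), with called genes in red and a black bar at the median of each list. The bar of cell division is at 1.36 with no red point, and that of CAR and PXR targets at 0.35 with 10.

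Markers of other cell types were compared to see whether the composition of the samples moved with the groups. No marker of Kupffer cells and macrophages (14 tested), T and NK cells (16) or sinusoidal endothelium (12) was called by edgeR or DESeq2 or had an unadjusted p under 0.05 in edgeR, and their summed levels were 974, 875, 962 and 914, 28.9, 23.4, 24.9 and 28, and 518, 543, 494 and 577 CPM in IMZ replicates 1 to 4. In control these sums ran from 765 to 1130, 19.7 to 32.5 and 493 to 575 CPM. Of 12 stellate cell and fibroblast markers Rgs5 rose, against 0.191% called higher among all genes. The other 11 had log2 fold changes below 0, 2 of them at an unadjusted p under 0.05, with a median over the list of -0.23. The sum of the 12 markers was 261, 255, 265 and 266 CPM in IMZ against 254 to 336 CPM. No marker of B and plasma cells (9), neutrophils (10), cholangiocytes (9), red blood cells (6), pancreas (9) or adipocytes (7) was called by edgeR or DESeq2, and 2, 2, 0, 1, 4 and 2 of them had an unadjusted p under 0.05. The sum of red blood cell markers was 46, 82, 47.1 and 71.3 CPM in IMZ against 27.4 to 67.6 CPM, that of pancreas markers 98.7, 207, 142 and 134 against 194 to 470 CPM, and that of adipocyte markers 11.7, 9.88, 9.55 and 12.6 against 8.83 to 26.2 CPM, the last in Control replicate 1. The pancreas sum was mostly Cpa1, at 92.9, 202, 136 and 129.5 CPM in IMZ, whereas 6 of the 9 pancreas markers had log2 fold changes above 0, 3 were higher and 1 lower at an unadjusted p under 0.05, with a median over the list of 0.79. Without Control replicates 1 and 2, 58 genes were called, 41 of them among the 50.

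IMZ was then set against the other compounds, each at its own dose and with the same 8 controls, by a test of the direct difference. Against THI at 108 mg/kg bw/day, 2 genes were called (0.01%), both higher in IMZ (0.01%), and none lower (0%), while 501 were lower at an unadjusted p under 0.05, and DESeq2 called 2 genes lower. Cdkn1a was at 8.26, 16, 14.3 and 15.1 CPM in IMZ and 3.48 to 5.18 CPM in THI, with a difference of 1.55 ± 0.27 on the log2 scale (adjusted p = 0.0287). Tp53inp1, another p53 target, was at 28.9, 30.2, 30 and 31.5 CPM and 13.9 to 18.6 CPM (0.89 ± 0.15, adjusted p = 0.0186). In both genes the IMZ rats lay near the controls, at 8.7 to 16.8 CPM for Cdkn1a and 20.1 to 36.5 CPM for Tp53inp1, and above the THI rats. Neither call was made in every fit, since both were lost without IMZ replicate 2, 3 or 4 or without THI replicate 2, 3 or 4. None of the 50 genes called against control was called against THI, which does not show that the compounds act alike on them. The smallest p among them was that of Lepr, with a direct difference of -0.87 ± 0.22 (adjusted p = 0.47). For Cyp2b1 the direct difference was -0.74 ± 0.81 and for Abcc3 -0.25 ± 0.27, with adjusted p of 0.964 and 0.966.

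Against CTD at 288 mg/kg bw/day, 930 genes were called (4.67%), 477 higher in IMZ (2.4%) and 453 lower (2.28%), falling to 491 without IMZ replicate 2 and 509 without CTD replicate 1. Of the 50 genes called against control, 8 differed from CTD. Cyp3a23/3a1 was higher in IMZ by 1.50 ± 0.43 on the log2 scale, its second identifier by 2.29 ± 0.52, Pir by 0.78 ± 0.23, Rgs5 by 1.05 ± 0.22 and Megf11, lowered less, by 0.84 ± 0.23. Gclm, Glb1l2 and Mccc1 were lower in IMZ, with differences of -0.54 ± 0.13, -1.70 ± 0.33 and -0.50 ± 0.13. The direct differences of Cyp2b1 (1.15 ± 0.90) and Cyp2b2 (-0.10 ± 0.53) were not called, which does not show that the compounds act alike on them. In the cell division list, 10 of 38 genes were lower in IMZ than in CTD and none higher, with a median difference of -1.61. The median of that list against the shared controls was 1.36 for IMZ, 0.01 for THI and 2.94 for CTD. In the direct test between IMZ and THI none of the 38 genes was called, which does not show that these compounds act alike on them.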

How the data were processed

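Livers of 31 female rats were sequenced, each rat an independent biological replicate, and 12 of them (4 IMZ, 8 control) were compared here. The authors trimmed adapters, aligned read pairs to the Rnor_5.0 genome and took gene counts from STAR, using uniquely mapped reads. Per the labels, the processing tools were FastQC 0.11.5, STAR 2.5.2b and DESeq2 1.15.1. The deposited count table holds whole, unnormalized counts for 26312 genes, and the second deposited table a signal, the same counts divided by the DESeq2 size factor of each library, for 19904 genes. The annotation release and the strand setting of the counting are not given in the sources used here. Depth was 32.7 to 101.2 M counts in control and 40.2 to 46.3 M in IMZ.

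Genes whose counts summed to 2 or more were tested with the quasi-likelihood method of edgeR 4.0.16 (R 4.3.3, TMM, 1 model with a mean for each group over all 31 libraries, Benjamini-Hochberg over all genes, threshold 0.05). Symbols are those of the count table. A further 26 lists of genes and 11 lists of cell type markers were counted, not tested as sets. The members and lists were chosen with earlier results of these data known. The rule for named genes was every called gene with a symbol, with values for the 12 highest and 12 lowest, the called members of each list or else up to 4 with the smallest p, and genes fixed by name. A few other list members and 2 genes without a symbol were added to the text after their values were seen. Alternatives were DESeq2 1.42.0 and its size factors, other filters, only the groups compared, thinned counts, a newer method of edgeR, a replicate block and each rat left out. Whether a replicate number paired rats was checked by the correlation of deviations from the group means. It ran from -0.135 to 0.105 between IMZ and control and from -0.222 to 0.0517 between IMZ and THI, so numbers were not used as pairs. Between IMZ and CTD it was 0.218, 0.0914 and 0.0441 for replicates 1 to 3. There IMZ replicates 1 and 2 correlated best with the CTD rat of their own number. Promoter windows are from RefSeq (GRCr8), a build other than that of the counts, and were matched by symbol. A few genes covered by the naming rule are not reported here.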

Additional observations from a re-analysis of the deposited data

Results flagged for a closer look

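Single livers stood apart from the other rats of their group in 14 of 214 groups of 4 or 8 rats tested by Dixon's ratio, the gap to the nearest rat over the range of the group, and chance gives about 1 in 20. In control, replicate 4 was highest for Abcc3 (ratio 0.647), replicate 2 lowest for Cyp2b1 (0.586) and Mccc1 (0.546), replicate 7 lowest for Pir (0.536) and Cdk1 (0.619), and replicate 3 lowest for Gsta3 (0.55). In IMZ, replicate 1 was lowest for Adam15 (0.952) and Cdkn1a (0.831), replicate 3 lowest for Csmd1 (0.873), and replicate 2 lowest for Zwint (0.882). Over whole lists, the mean of the G1 cyclins and inhibitors was highest in IMZ replicate 3 (0.83) and that of the pancreas markers, a mean of log2 levels in which the abundant Cpa1 weighs no more than the others, in IMZ replicate 1 (0.925). The mean of the acute phase genes was lowest in Control replicate 1 (0.75), and that of the adipocyte markers highest in the same liver (0.768).

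The direct difference between IMZ and THI passed the threshold for 2 genes, with a log2 difference of 1.55 for Cdkn1a and 0.893 for Tp53inp1, both higher in IMZ.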

How the results depend on the processing

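Against control, 50 genes were called by edgeR, 150 by DESeq2 (50 shared) and 93 with only the 2 groups in the fit (41 shared). Leaving out 1 rat gave 28 to 59. Against THI, 2 genes became 12 by DESeq2, 1 with thinned counts, and 0 to 2 with 1 rat left out. Against CTD, 930 became 1461 by DESeq2, 240 with only the 2 groups, and 491 to 976 with 1 rat left out. No gene called against control changed its sign under any alternative tried. The choice of leaving out Control replicates 1 and 2 together was made after seeing the data and gave 58 calls.

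Replicate numbers gave no pairs between IMZ and control, since no IMZ rat correlated best with the control of its own number. With the replicate block 23 genes were called, 19 higher and 4 lower, 21 of them among the 50.

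The genes that changed direction were not called. With the replicate block the log2 fold change was 0.22 for Ppargc1a, 0.37 for Cyp7a1, -0.21 for Per2 and -0.051 for Igf1. With 1 rat left out it ranged from -0.35 (without IMZ replicate 2) to 2.58 for Cyp2c11, from -0.0078 (IMZ 2) to 2.45 for Npc1l1, from -0.060 (IMZ 3) to 0.30 for Nqo1, from -0.95 to 0.15 (IMZ 1) for Cyp7a1, from -0.24 (IMZ 2) to 0.27 for Per2, from -0.032 (IMZ 2) to 0.24 for Cdkn1a, and from -0.018 (IMZ 2 and Control 8) to 0.044 for Igf1. Cdkn1a was also just below 0 without IMZ replicate 4 (-0.00066) and Control replicate 1 (-0.0039). The cause of these changes was not tested.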

Other observations

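Some genes of clear level in most livers were near 0 in single livers, by a rule chosen after seeing the data (median over the 12 livers above 5 CPM and lowest value under a fiftieth of it). Ugt2b, a glucuronosyltransferase, was at 0.231 CPM in Control replicate 4, at 990 to 1050 CPM in Control replicates 1 to 3 and at 2000 to 2230 CPM in replicates 5 to 8, and at 2110, 1070, 2300 and 2410 CPM in IMZ. Over all 31 livers 4 were under 1 CPM, 15 lay between 985 and 1284 CPM and 12 between 1886 and 2547 CPM. Its log2 fold change against control was 0.46 (adjusted p = 0.955). The called gene Ugt2b17 was at 115 CPM in Control replicate 4, at 192 to 221 CPM in Control replicates 1 to 3 and at 276 to 358 CPM in replicates 5 to 8. In IMZ replicates 1 to 4 Ugt2b17 was at 592, 622, 594 and 586 CPM. A link between the levels of both genes was not tested. Ubd, a ubiquitin-like protein, was under 0.1 CPM in Control replicates 1 and 2 and at 32.2 to 46.4 CPM in the other controls. In IMZ it was at 20.0, 0.0245, 26.9 and 0.0864 CPM, and it was under 1 CPM in 11 of the 31 livers. Mmd2 was at 0.447 CPM in Control replicate 4, at 29.1 to 58.6 CPM in the other controls, and at 13.4, 23.2, 13 and 17.9 CPM in IMZ (log2 fold change -1.21, adjusted p = 0.636). The adjusted p-values are those of edgeR.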
